A study of Mus musculus with 6 samples.

Results

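Triadin (Trdn) and 9 further genes of calcium storage and release in the sarcoplasmic reticulum were followed across arrays of abdominal adipose tissue from mice. The genes were Trdn, Jsrp1, Casq1, Casq2, Asph, Ryr1, Jph2, Atp2a1, Sln and Pln. They were measured by 30 of the 150305 non-control probes on the array, which named 21342 genes in all. Of these probes, 19 carried the gene name, 10 were named only by a RefSeq accession that the gene table assigned to 1 of the genes, and 1 was named by a genomic interval inside Trdn. All the mice were of the C57BL/6 strain, were given a high-fat diet (HFD) from 6 weeks of age and were operated on after 12 weeks of it. The 3 DJB arrays came from mice with a duodenal-jejunal bypass, an operation that reroutes food past the first part of the small intestine. It left a biliopancreatic limb of 5 cm and a Roux limb of 4 cm, and was done under buprenorphine at 0.15 mg/kg given i.p. The 3 Sham arrays came from mice with the same incision and cuts of the gut, sewn back in place. Nothing in the labels says that the arrays of a group came from separate animals, and they give neither the fat depot nor the time after surgery. The p-values below therefore measure the spread between these samples, which may be technical.

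In striated muscle the sarcoplasmic reticulum takes up calcium through pumps, holds it on calsequestrin and releases it through the ryanodine receptor when the membrane is depolarised. Triadin and junctin are membrane proteins that tie calsequestrin to the release channel, and junctophilins hold the reticulum close to the plasma membrane. Sarcolipin and phospholamban are small proteins that restrain the pump. Non-muscle cells, white fat cells among them, also release calcium from the endoplasmic reticulum through inositol trisphosphate receptors, and beige fat cells are known for calcium cycling through a SERCA pump and a ryanodine receptor.

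The genes had been picked with the DJB against Sham results of these arrays in view. Their differences are therefore given as a description, with no test, and support nothing on their own. Values are the log2 of the processed spot intensity minus the array's 75th percentile, called the level, and a difference is DJB minus Sham on that scale. An SE is that of limma's fit over all probes. Only probes that 3 or more of the 6 arrays read well above background entered the fit, and these are called tested. Levels of different probes were not set against each other, since each probe has its own brightness.

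Before scaling, the 75th percentile of intensity lay between 175.8 and 183.7 on the Sham arrays and between 132.0 and 165.3 on the DJB arrays. Between 62.6% and 68.8% of probes were well above background. The number of arrays, 3 per group, limits the precision, and an exact permutation test of 3 against 3 cannot go below p = 0.10. In the fit of all 99436 tested probes, 3.15% were called lower and 1.83% higher in DJB at an adjusted p under 0.05. Of 18326 genes, each taken by its brightest tested probe, 6.1% were called lower and 1.4% higher. All 12 adipocyte markers were well above background on every array, but so were all 12 smooth muscle markers listed below. That count alone therefore cannot check the tissue label. The summed level of the adipocyte markers, the mean over the list, lay between 7.83 and 8.09 on Sham and between 6.49 and 7.46 on DJB arrays.

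Trdn was the member with the widest gap. All 5 of its probes were lower on every DJB array than on any Sham array. The brightest of them, A_52_P268563, starts at base 413 of the transcript and lies at chr10:32859030-32859089 on the plus strand of mm9, the build in the file headers. Its processed intensity was 455, 348 and 430 on Sham-1, Sham-2 and Sham-3, and 1.81, 3.35 and 9.39 on DJB-1, DJB-2 and DJB-3. The corresponding levels were 1.31, 0.98 and 1.23 against -6.51, -5.44 and -3.81. The Sham arrays lay close together (SD 0.17, n = 3), while the DJB arrays spread widely (SD 1.36, n = 3) and were far below them. The difference was -6.43 (SE 0.64), 86.2-fold lower. Only 1 of the 3 DJB arrays, DJB-3, was well above background for this probe, so the size of the gap rests mostly on values near the limit of measurement. With dim values raised to the lowest level well above background on their array, the difference was -5.63.

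The other probes show whether the gap held along the gene, which spans chr10:33083483-33476709 in GRCm38.p6. The sequences of 3 probes are shown, so that their separate targets can be seen. A_52_P202322 starts at base 2063, and its 60 bases are placed at chr10:33184400-33187979 in mm9, a span of 3580 bases, so the probe joins separate exons. The third was named by the interval chr10:33139074-33158278, plus strand, read as GRCm38 (the files state no build for intervals). Whether such a probe reads the linear message or a junction of a circular RNA is not stated. Its place along the message is therefore not known. The 3 sequences, 5′ to 3′ as spotted, have 35.0%, 36.7% and 38.3% G and C.
Trdn, base 413: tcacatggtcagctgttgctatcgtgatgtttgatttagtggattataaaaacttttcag
Trdn, base 2063: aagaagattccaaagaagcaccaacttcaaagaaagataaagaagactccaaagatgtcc
Trdn, interval: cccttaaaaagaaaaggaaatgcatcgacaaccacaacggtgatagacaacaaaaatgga

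No 2 of the 5 Trdn probes shared a run of more than 8 bases, so they are separate measurements of the same 6 RNA samples. The interval-named probe had intensities of 129, 102 and 121 on Sham and 1.26, 1.17 and 1.06 on DJB arrays. It was not well above background on any DJB array, so its fold is a bound: at least 17.5-fold lower, with measured level means of -0.63 on Sham and -6.99 on DJB. A bound sets the Sham mean against, for each DJB array, the greater of 2 values: what the probe itself read, and the lowest level of any probe well above background.

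The probe named only by the Trdn accession read 147, 118 and 117 on Sham and 1.22, 1.19 and 2.24 on DJB arrays, at least 19-fold lower. A_52_P771589, which starts at base 3976 near the far end of the message, read 44.8, 38.2 and 46.6 on Sham and 1.23, 1.16 and 1.01 on DJB arrays, at least 6.46-fold lower. The dimmest, at base 2063, was well above background on 2 Sham arrays and was not tested. It read 9.97, 6.25 and 8.98 on Sham and 1.26, 1.83 and 1.08 on DJB arrays, at least 1.24-fold lower. The bounds shrink with the probe's brightness on Sham, since the same lowest level was used for all probes of an array. That level is no strict limit: a Trim72 probe on Sham-2 (-4.61) lay above it (-4.72) and was not well above background. The bounds are therefore approximate.

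**Figure D1:**
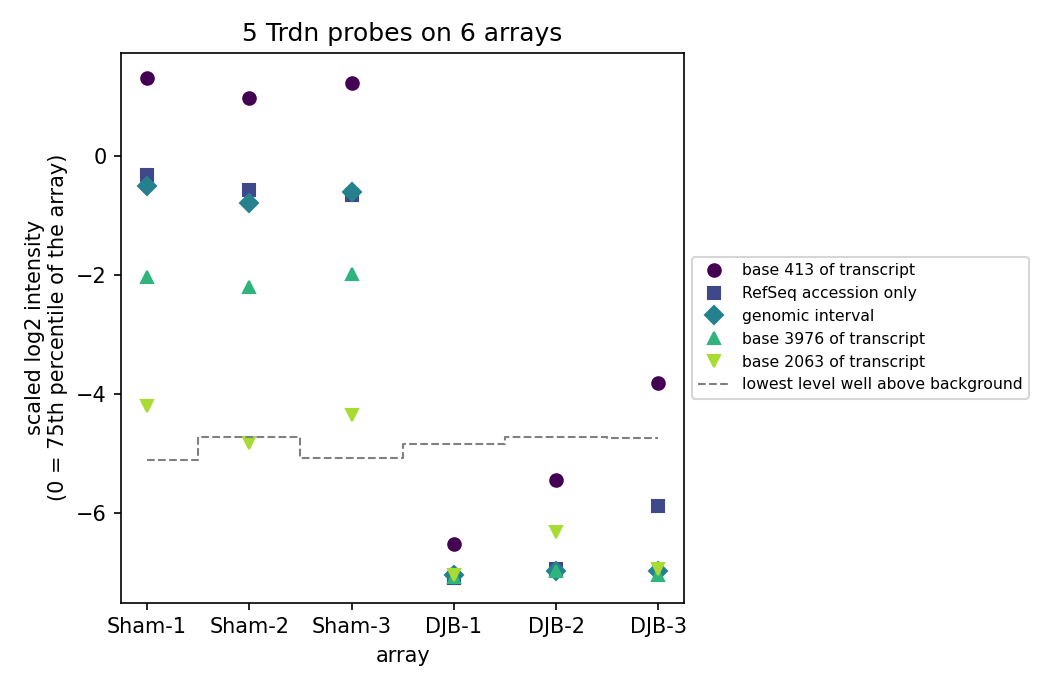
Level (scaled log2 intensity) of the 5 Trdn probes on each of the 6 arrays, 1 marker shape per probe, with the lowest level well above background on each array as a dashed line. On DJB arrays 1 marker, that of the probe at base 413 on DJB-3 (-3.81), is above the line, whereas on Sham arrays the markers lie above it except at base 2063 on Sham-2.

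Both slides showed the gap. At base 413 the difference was -7.25 on slide 1, which held 2 arrays of each group, and -4.80 on slide 2, which held 1 of each. Leaving out each array in turn gave -7.15 to -5.80. On the authors' deposited log2 table it was -6.36. After normexp background correction, which adds an offset of 50 to every intensity and so compresses dim values, it was -2.82.

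Jsrp1, a junctional protein of the sarcoplasmic reticulum, differed little between the groups. The gene spans chr10:80808494-80813741 (GRCm38.p6) and had 2 probes, both tested. Its brighter probe stood at 3.84, 3.81 and 4.01 on Sham and at 4.42, 3.96 and 3.77 on DJB arrays. The groups overlapped, and the difference was 0.17 (SE 0.19). The other probe differed by 0.28 (SE 0.39).

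Of the calsequestrins, the calcium stores of the reticulum, Casq1 is the skeletal muscle form. It spans chr1:172209894-172219895 and had 2 probes, both tested. The brighter probe stood at 1.68, 1.28 and 1.23 on Sham and at -0.84, -0.51 and -0.21 on DJB arrays. Every DJB array was below every Sham array. All 6 values were well above background, so this difference of -1.91 (SE 0.21), 3.77-fold lower, was measured on both sides. A_51_P199104, at base 1237, gave -2.46 (SE 0.72), with 1 DJB array well above background. Its 60 bases are placed at chr1:174140602-174142105 on the minus strand of mm9, a span of 1504 bases, so it too joins separate exons.
Casq1, base 1237: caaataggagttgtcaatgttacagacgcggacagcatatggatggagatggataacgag

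Casq2, the calsequestrin of heart and slow muscle, spans chr3:102086415-102146514 and had 2 probes, both tested. By the rule the brighter stood for the gene, at -1.51, -2.15 and -2.39 on Sham and -2.67, -2.75 and -3.19 on DJB arrays. The groups did not overlap, yet the gap between the lowest Sham and the highest DJB array was small beside the spread within Sham (SD 0.46, n = 3). Its difference was -0.85 (SE 0.26). The other probe, A_51_P174696 at base 1905, disagreed in size: it stood at -1.04, -2.04 and -2.58 on Sham and at -4.54, -5.92 and -4.49 on DJB arrays. That made a difference of -3.09 (SE 0.53), with 2 DJB arrays well above background. The value for Casq2 therefore moves with the choice of probe, and the mean of both was -1.97. Outside the rule, 3 tested interval-named probes inside Casq2 differed by -0.04 to 0.24, and 0 of them were called.

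Asph encodes aspartate beta-hydroxylase and, from alternative transcripts, junctin, the partner of triadin. It spans chr4:9449085-9669344, and all of its 6 probes were tested and well above background on every array. The brightest, starting at base 2645 of 1 transcript, stood at 4.00, 3.76 and 4.22 on Sham and 3.48, 3.53 and 3.71 on DJB arrays. The groups were separated by a narrow margin, with a difference of -0.42 (SE 0.16), which was -0.61 on slide 1 and -0.04 on slide 2. The other 5 probes differed by -0.04 to 0.14, each within its SE, so this probe was the lowest of the 6. The probes were designed to several transcripts, and which of them encode junctin was not worked out here. Outside the rule, 27 interval-named probes lay inside Asph, and their differences ranged from -0.54 to 0.33.

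Ryr1, the skeletal muscle ryanodine receptor, spans chr7:29003340-29125179 and had 3 probes, all tested. The brightest, A_52_P391110, starts at base 15052, near the end of this long message, and is placed at chr7:29788789-29789487 on the minus strand of mm9.
Ryr1, base 15052: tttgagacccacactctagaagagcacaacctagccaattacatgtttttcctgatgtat
It stood at 1.14, 1.05 and 1.31 on Sham and at 2.12, 0.05 and 0.82 on DJB arrays. DJB-1 was above every Sham array, while DJB-2 and DJB-3 were below every Sham array. The groups thus overlapped, and the DJB spread (SD 1.05, n = 3) exceeded the Sham spread (SD 0.13, n = 3). The difference was -0.17 (SE 0.50), and -0.73 without DJB-1 but 0.31 without DJB-2. The same order of the DJB arrays was seen at the other 2 probes, whose differences were -0.15 and -0.14. Outside the rule, 2 interval-named probes inside Ryr1 differed by -0.35 and 0.15.

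Jph2, a junctophilin, spans chr2:163336242-163398049 and had 3 probes, all tested and well above background on every array. The brightest stood at 3.31, 2.27 and 2.34 on Sham and 0.44, 1.01 and 1.05 on DJB arrays. Sham-1 was the highest array, and all DJB arrays were below all Sham arrays, with a difference of -1.81 (SE 0.33), 3.50-fold lower. The probe at base 3533 gave nearly the same, -1.77 (SE 0.31). The one at base 2627 gave -0.49 (SE 0.30) with overlapping groups, so the probes disagreed in size. The 4 tested interval-named probes inside Jph2, also outside the rule, differed by -1.10, 0.13, -0.02 and -0.002, and 0 were called.

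Atp2a1 encodes the fast skeletal muscle calcium pump, SERCA1. It spans chr7:126445858-126463103 and had 3 probes, of which 2 were tested. The brightest, A_51_P244856, starts at base 2385 and is placed at chr7:133591703-133591762 on the minus strand of mm9.
Atp2a1, base 2385: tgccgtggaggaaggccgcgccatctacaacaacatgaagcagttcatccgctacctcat
It stood at -0.11, -0.41 and -0.28 on Sham and -0.40, -0.29 and -0.13 on DJB arrays. The groups overlapped fully and the difference was -0.01 (SE 0.13), of no fixed sign, being 0.10 with median scaling. The accession-named probe behaved otherwise, at -1.30, -2.24 and -3.02 on Sham and -3.06, -3.06 and -3.13 on DJB arrays, a difference of -0.90 (SE 0.41). Sham-3 was nearly as low there as the DJB arrays. Other calcium pump genes are close relatives of Atp2a1, and cross-reading between them was not tested.

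Sln, which encodes sarcolipin, spans chr9:53850251-53853849 and had 2 probes that share a run of 45 bases and so are not separate measurements. The tested probe stood at -1.28, -2.12 and -4.06 on Sham and -5.60, -6.58 and -4.18 on DJB arrays. Sham-3 and DJB-3 nearly met, and only 1 DJB array was well above background. The difference was -2.97 (SE 0.87), with a wide Sham spread (SD 1.43, n = 3). The untested probe read 39.0, 22.1 and 2.72 on Sham and 1.19, 1.16 and 1.76 on DJB arrays, at least 1.99-fold lower, and was well above background on 2 Sham arrays.

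Pln, which encodes phospholamban, spans chr10:53337686-53345999 and had 2 probes, both tested. The brighter stood at -0.51, -1.90 and -0.51 on Sham and -2.04, -1.85 and -1.76 on DJB arrays. Sham-2 lay among the DJB arrays, so the groups overlapped. The difference was -0.91 (SE 0.39) over all arrays, -1.43 on slide 1 and 0.14 on slide 2, which held Sham-2 and DJB-3. The second probe gave -0.89 (SE 0.48), with 2 DJB arrays well above background.

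**Figure D2:**
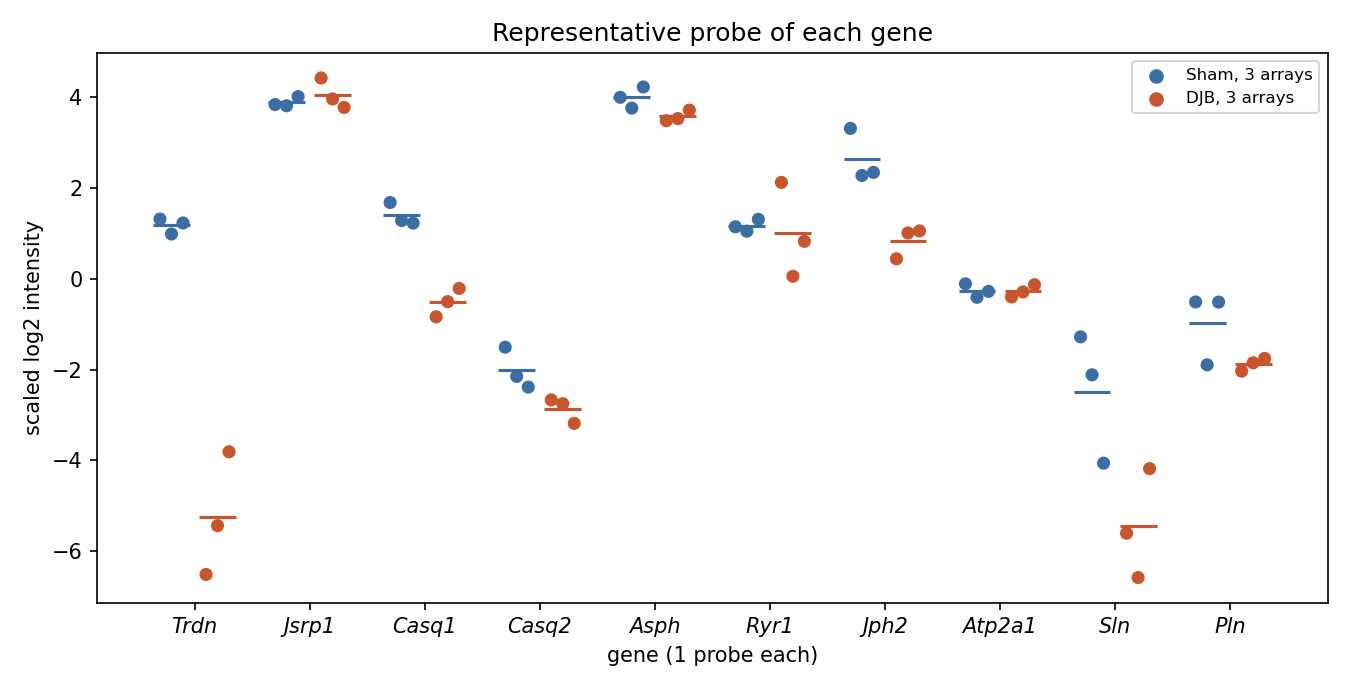
Level (scaled log2 intensity) of the representative probe of each gene on the 3 Sham and 3 DJB arrays, in the order replicate 1 to 3, with a line at each group mean. Heights may be compared between the groups of a gene and not between genes. Trdn has the widest gap (-6.43), and Ryr1, Atp2a1, Jsrp1 and Pln overlap.

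Taking all members, 23 of the 27 tested probes had a difference below 0, against 41.0% of all tested probes. On 13 of the 27 every DJB array was below every Sham array, against 14.2% of all tested probes, and on none was every DJB array above, against 21.8%. In the fit 8 of the 27 were called lower, against the 3.15% of all tested probes given above, and 5 with the slide as a block. The median difference over the 27 was -0.85, against 0.08 over all tested probes. Since this contrast chose the genes, nothing is read from these shares. The 8 called probes were 4 of Trdn, 2 of Jph2 and 1 each of Casq1 and Casq2. The Trdn probes named by interval, by accession and at base 3976 entered the fit through the Sham arrays alone.

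**Figure D3:**
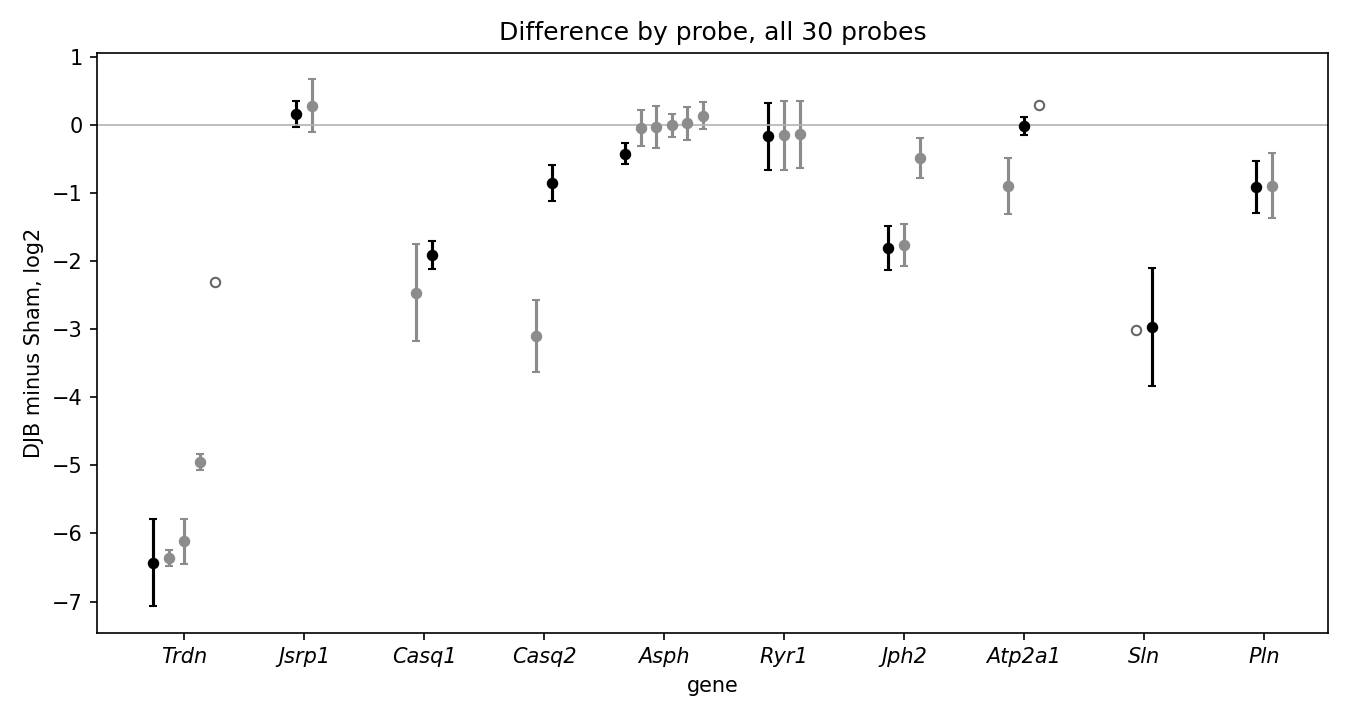
Difference between DJB and Sham (log2, with the SE of limma's fit as bars) for all 30 probes, grouped by gene. Black points are the representative probes, grey points the other tested probes and open points the 3 untested ones, which have no SE. The probes of Casq2, Jph2 and Atp2a1 disagree in size (-0.85 and -3.09 for Casq2).

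Within the Sham group the members ranged over unequal spans. Trdn at base 413 ranged from 0.98 to 1.31 there and Ryr1 from 1.05 to 1.31. Sln ranged from -4.06 to -1.28 and was lowest on Sham-3.

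Likeness to Trdn was measured by Pearson's r with its base 413 probe over the 6 arrays, among 6071 genes whose level ranged over at least 1 log2 unit. The arrays form 2 groups, so r is high for any gene with a gap that is wide beside its spread within the groups, and it is given as a description. The 10 highest, with r of 0.996 to 0.998, were Mpc2, Slc36a2, Slc5a7, Trim67, Slc13a4, Tfr2, Cobl, Lmo1, Nedd9 and Ctnnal1. Mpc2, a subunit of the mitochondrial pyruvate carrier, ranked first and differed by -0.81. Slc36a2, an amino acid transporter, differed by -1.75, and Tfr2, a transferrin receptor, by -4.51. All 10 were well above background on every array, and none is on the muscle or calcium lists used here. Among the members Casq1 ranked 87 (r = 0.990), Jph2 896 (0.940), Sln 1857 (0.847), Casq2 2583 (0.726), Pln 2590 (0.724) and Ryr1 4121 (0.012). Asph, Jsrp1 and Atp2a1 ranged over less than 1 log2 unit and were not ranked.

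Genes of the same apparatus that were not members were counted from a list of 30 made from general knowledge of the pathway, of which 28 were tested. This list and those below were chosen with earlier results of these data known. In limma's test 2 of the 28 fell and 0 rose. At an unadjusted p under 0.05, 7 were lower and 5 higher. Over all 99436 tested probes, 12545 were lower and 15504 higher at that threshold, counted by probe and not by gene. At the adjusted threshold, the shares called among all genes were 6.1% lower and 1.4% higher, as above. The median difference of the list was -0.01. Srl, which encodes sarcalumenin, a calcium-binding protein of the reticulum, stood at 2.18, 1.94 and 2.00 on Sham and 0.42, 0.66 and 0.49 on DJB arrays. It fell by 1.52 (SE 0.13, adjusted p = 0.0107 in limma's fit, 0.0285 with the slide as a block). That call was lost without Sham-1 (adjusted p = 0.0657 in limma's fit) and kept when any other array was left out.

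Jph1, the skeletal muscle junctophilin, stood at 1.32, 1.24 and 1.29 on Sham and -1.49, -0.52 and -0.05 on DJB arrays. It fell by 1.97 (SE 0.35, adjusted p = 0.0411 in limma's fit), a call lost with the slide as a block (0.0647). It was also lost without Sham-1, Sham-2, Sham-3 or DJB-2, where limma's adjusted p was 0.0746 to 0.147. Ryr2 and Sypl2 had wide mean differences without a call. Ryr2, the cardiac ryanodine receptor, differed by -2.32 (SE 0.57, adjusted p = 0.069 in limma's fit), with DJB-1 the lowest array at -4.26. Sypl2, mitsugumin 29 of the triad junction, stood at -1.45, -3.18 and -4.77 on Sham and -6.51, -5.84 and -4.81 on DJB arrays. Sham-3 and DJB-3 thus nearly met. The bound was at least 3.1-fold lower, with an adjusted p of 0.122 in limma's fit. No DJB array was well above background, so Sypl2 entered the fit through the Sham arrays alone.

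The voltage sensor and its partners, which act upstream of the release channel, were nearly level between the groups. Cacna1s, the voltage-sensing channel subunit, differed by 0.20 (SE 0.23), Stac3, its adaptor, by -0.17 (SE 0.17), and Cacnb1, another subunit, by -0.13 (SE 0.11). Atp2a2, the pump form found in most cells, differed by 0.20 (SE 0.14). The release channel's small partners Fkbp1a and Fkbp1b differed by 0.57 (SE 0.18) and 0.69 (SE 0.20), with no call (adjusted p = 0.112 and 0.092 in limma's fit).

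A second list held 23 genes of the calcium store of non-muscle cells, all tested. In limma's test 1 rose and 2 fell, against 1.4% and 6.1% of all genes, and the median difference was 0.11. Itpr1, an inositol trisphosphate receptor, fell by 1.07 (SE 0.14, adjusted p = 0.0275 in limma's fit). Atp2b4, a calcium pump of the plasma membrane, fell by 1.33 (SE 0.25, adjusted p = 0.0446 in limma's fit). Orai1, the plasma membrane channel that refills the store, rose by 0.55 (SE 0.10, adjusted p = 0.044 in limma's fit). None of these 3 calls held with the slide as a block, where limma's adjusted p was 0.0553, 0.0721 and 0.0731, and Orai1 was lost when any single array was left out. Without Sham-1, Sham-2 or DJB-2, Itpr1 and Atp2b4 were lost too, with limma's adjusted p between 0.083 and 0.155, and Atp2b4 also without Sham-3 or DJB-1 (0.0812 and 0.0781 in limma's fit).

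**Figure D4:**
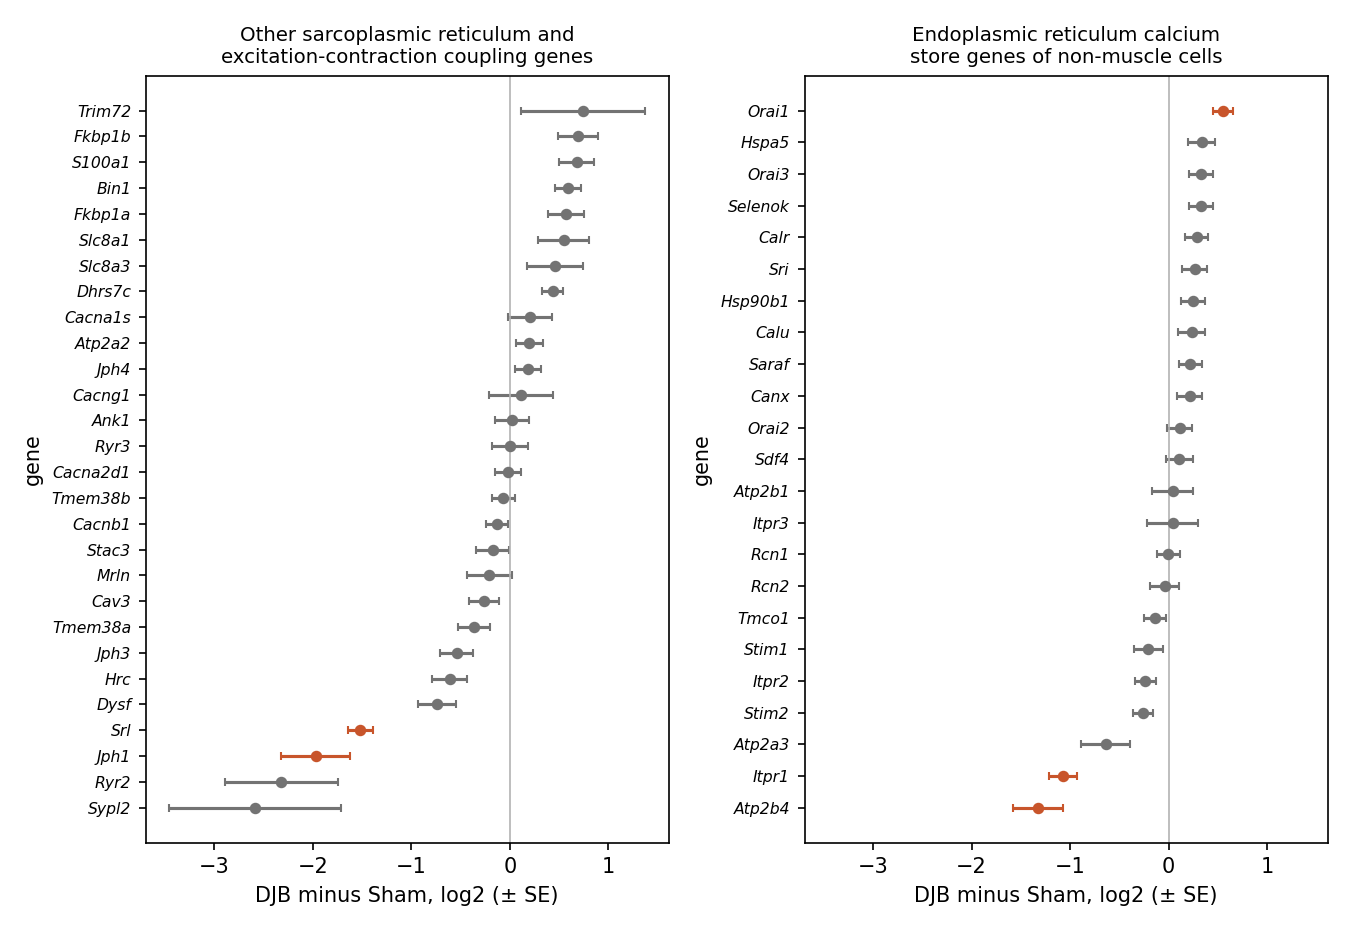
Difference between DJB and Sham (log2, with the SE of limma's fit as bars) for the 28 tested genes of the muscle list, left, and the 23 of the non-muscle list, right, 1 representative probe each. Orange points passed an adjusted p under 0.05: Jph1 and Srl lower on the left, and Itpr1 and Atp2b4 lower and Orai1 higher on the right.

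Markers of muscle cells, which a sample of abdominal fat can hold, differed in part between the groups. Fewer cells of a type and less RNA per cell cannot be told apart in such bulk samples. The skeletal muscle list had 30 markers, 28 of them tested, and 26 to 29 were well above background on each array. Its summed level lay between -0.38 and -0.35 on Sham and between -1.15 and -1.04 on DJB arrays, without overlap. Of the 28, 17 had a difference below 0, and the median was -0.30. In the fit, where 6.1% of all genes were called lower and 1.4% higher, 6 were called lower: Acta1, the skeletal actin (-4.77, SE 0.64), Pvalb, parvalbumin (-4.28, SE 0.18), Mb (at least 4.42-fold lower), Myh2 (-1.61), Tnnc2 (-1.49) and Actn2 (-1.33). Mb was well above background on Sham arrays only, so it entered the fit through the group where it was high. Tnnc1, troponin C of slow and heart muscle, was the single one called higher (1.23, SE 0.13). Ckm, the muscle creatine kinase, differed by 0.28 (SE 0.12) and Actn3, an actinin of fast fibres, by -0.04 (SE 0.13). With the slide as a block, Pvalb and Tnnc1 kept their calls and the other 5 were lost (adjusted p = 0.0565 to 0.0724 in limma's fit). Myh4, a fast myosin, was well above background on no array. The part of muscle tissue in the member differences was not tested.

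Of 11 heart muscle markers, 3 were called lower, namely Myl7 (-2.53), Actc1 (-2.07) and Myl4 (-2.02). For this and the next 3 lists the share called lower among all genes was 6.1%. The heart list's summed level lay between -0.06 and 0.65 on Sham and between -1.03 and -0.52 on DJB arrays. That level includes Tnnt2, which had the list's widest difference (-4.33, SE 1.68) and was not called. Its groups overlapped, with -2.75 on Sham-3 and -1.44 on DJB-3. Myh6, the myosin that defines atrial and mouse ventricular muscle, differed by 0.00 (SE 0.24). Among 12 smooth muscle markers 6 were called lower: Cnn1 (-2.61), Acta2 (-2.40), Myh11 (-2.10), Mylk (-1.91), Lmod1 (-1.57) and Synpo2 (-1.43). Their summed level lay between 3.32 and 3.99 on Sham and between 2.12 and 2.31 on DJB arrays. Of the adipocyte markers 3 of 12 were called lower (Lep -2.96, Retn -1.20, Pparg -0.72). Of 9 tested brown and beige adipocyte markers 2 were called lower (Otop1 -2.05, Cox7a1 -0.90). A difference below 0 was seen for 8 of these 9, and their median was -1.24. Dio2 went the other way, with every DJB array above every Sham array. It differed by 1.33 (SE 0.34), with no call (adjusted p = 0.072 in limma's fit). With the slide as a block, Myl7, Actc1, Acta2 and Mylk kept their calls. Those of Myl4, Cnn1, Myh11, Lmod1 and Synpo2, and all 5 of the fat cell markers, were lost (adjusted p = 0.0504 to 0.081 in limma's fit). The summed level of the brown and beige markers lay between 1.31 and 2.21 on Sham and between -0.10 and 1.001 on DJB arrays. All 5 lists were thus lower in DJB by summed level, and their part in the member differences was not tested.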

How the data were processed

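RNA of 6 samples (3 Sham, 3 DJB, as titled in the labels) was measured on 1-colour arrays labelled with cyanine 3. The deposited processed intensity of each spot had been background-subtracted by the authors in Agilent Feature Extraction 12.0.3.1, per the file headers. The deposited mean and background intensity were used for normexp. The authors' deposited log2 table was an alternative. Its columns correlated best with their own arrays (r of at least 0.99934), its medians were 4.55 to 4.56, and how it was normalized is not given in the sources used here. The submitters' processing notes list limma but no version, and do not say what it did. The headers announce 172336 features and the files hold 155279. The rest were not analysed here.

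The log2 processed intensity minus each array's 75th percentile over non-control probes was fitted with limma 3.58.1 (lmFit and eBayes, two-sided, no covariates, Benjamini-Hochberg over all tested probes) in R 4.3.3 with the data.table package (1.17.8). Python 3.11.15, numpy 2.4.6, pandas 2.3.3 and matplotlib 3.10.9 did the rest. Flagged outlier spots (18 to 25 per array) were left out, and no spot was saturated. The tested probe with the highest mean over the 6 arrays stood for a gene. Interval names were read as GRCm38, since 98.2% lay inside a gene of the RefSeq GRCm38.p6 table, against 43.4% and 42.1% after shifts of 500000 bases either way. Accessions were named through the same table, for 48048 probes. Probe sequences are the scanner files' own.

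Named were every member with its representative probe, all Trdn probes, the member probes farthest from the representative, up to 6 called genes of each list, and the 10 genes most like Trdn. Other genes were picked after their values were seen. The members and lists were chosen with earlier results of these data known. The fit was tested on simulated data. Alternatives covered background correction, scaling, the filter, the prior, slide and replicate number as blocks, single slides, left-out arrays, the choice of probes and the authors' table. The labels do not say that the replicate numbers pair the samples, and same-numbered arrays' deviations correlated at -0.18, -0.12 and -0.30.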

Additional observations from a re-analysis of the deposited data

How the results depend on the processing

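The Trdn, Casq1, Casq2, Jph2 and Sln differences stayed below 0 in every alternative run for them. With normexp Trdn became -2.82, Sln -0.49, Casq2 -0.16 and Casq1 -1.49, and on slide 2 alone Trdn was -4.80. On slide 2 alone Pln (0.14) and Atp2a1 (0.28) turned above 0, as did Ryr1 without DJB-2, and Jsrp1 turned below 0 there and without DJB-1. The cause was not tested. Tested member probes lower in DJB numbered 15 when all 6 arrays had to be well above background, where fewer probes were tested, and 15 without the probes named only by accession, a choice added after seeing the data. Median scaling moved the median of all genes to 0.11. Signal over background limits the probes of Trdn and Sln and 1 probe each of Casq1, Casq2, Pln and Atp2a1 on DJB arrays, so those differences rest partly on dim values.

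Counts of calls depended on the setting. Over all probes, higher and lower calls were 7032 and 4898 with normexp and 5269 and 5325 with a trended robust prior. They were 73 and 582 without a filter and 88 and 619 with the slide as a block. Higher calls were 3479 with the filter on all 6 arrays, and lower calls 2025 with median scaling. Of genes, 823 and 2189 were called with normexp, 971 and 1926 with the trended robust prior, 10 and 206 without a filter and 12 and 223 with the slide as a block. Higher genes were 495 with the filter on all 6 arrays and 823 with the mean of a gene's tested probes. Leaving out 1 array gave 1 to 792 higher and 119 to 3182 lower probes, and 0 to 124 higher and 43 to 1166 lower genes.

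With the replicate number as a block, limma called 0 probes and genes, and 0 of either calcium list, in both directions, with 10397 higher and 11028 lower probes at an unadjusted p under 0.05. The labels do not say that the numbers pair the samples, and why the calls were lost was not tested.

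The list of other sarcoplasmic reticulum genes had 2 higher and 4 lower calls with normexp, 4 higher with the trended robust prior, 2 higher with the mean of probes and 1 higher with the filter on all 6 arrays. It had 1 lower without a filter and 1 with the slide as a block, and 0 to 3 lower and 0 higher with 1 array left out. The non-muscle list had 1 lower with median scaling and 2 higher with the mean of probes, while without a filter or with the slide as a block it had 0 in both directions. With 1 array left out it had 0 higher and 0 to 2 lower.

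The summed level difference of skeletal muscle markers, -0.74, was -0.38 with normexp, -0.70 with quantile normalization, -0.64 with median scaling, -0.79 without a filter and -0.87 with the mean of probes. For heart muscle markers, -1.14, it was -0.76 with normexp and -0.82 with the filter on all 6 arrays. On slide 2 alone it was -1.01 for smooth muscle markers, against -1.35, and -0.38 for adipocyte markers, against -0.95. With 1 array left out, each of the 5 lists stayed below 0 (skeletal -0.77 to -0.72, heart -1.32 to -0.96, smooth -1.48 to -1.14, adipocyte -1.15 to -0.66, brown and beige -1.41 to -0.86).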
